A study of Mus musculus with 8 samples.

Results

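Fibrillar collagen is made, trimmed and bound into fibers by a set of enzymes and chaperones, and 10 of their genes were followed here in mouse mammary tumors: Serpinh1, P3h1, P4ha3, Plod1, Plod2, Pcolce, Bmp1, Lox, Loxl1 and Loxl3. They were chosen by name, with earlier results of these data known. Each had 1 array row with a single gene symbol, so that 10 of 10 were measured among 22180 genes. Total RNA of 8 whole tumors was measured. They grew in MMTV-PyMT mice, in which a mouse mammary tumor virus promoter drives the polyoma middle T antigen in mammary epithelium. The 4 conditional knockout (cKO) tumors carried MMTV-PyMT, MMTV-Cre and 2 floxed Mmp14 alleles, written Mmp14(f/f), and the 4 wild-type (WT) tumors carried MMTV-PyMT and Mmp14(f/f) with no Cre. All mice were congenic FVB/NJ littermates aged 3 to 4 months, and the controls thus have the floxed alleles too. Cre under this promoter acts in mammary epithelium, so the stroma of a cKO tumor is not targeted by design, and the labels do not say from how many glands or nodules a sample was taken.

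Procollagen chains are modified in the endoplasmic reticulum before they fold into a triple helix. Prolyl 4-hydroxylases stabilize that helix, prolyl 3-hydroxylase 1 modifies single prolines, lysyl hydroxylases prepare lysines for crosslinks and sugars, and the chaperone encoded by Serpinh1 (HSP47) binds the folded helix. Outside the cell, Bmp1 removes the C-terminal propeptide with the help of Pcolce, and the lysyl oxidases Lox, Loxl1 and Loxl3 oxidize lysines so that neighbouring molecules become crosslinked. In mammary tumors this crosslinked collagen is laid down largely by fibroblasts and is known to stiffen the tissue, and Mmp14 encodes a membrane-anchored protease that cleaves it.

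Promoters are shown for the 4 of these genes whose listed promoter lay close to the outermost annotated start of the gene. The signals of the genes played no part in that choice. P3h1 and P4ha3 were lower in the cKO mean, while Serpinh1 and Plod1 were not. P3h1, P4ha3 and Plod1 were lowest in cKO 3, and Serpinh1 was not. The promoter table held 5 of the 10 genes, and Pcolce is not shown. The sequences are those of RefSeq on mouse build GRCm38.p6, 5′ to 3′ on the gene's strand, and end 1 base before the outermost annotated start of the gene. Capitals mark the CCAAT box, the GC box core GGGCGG and the TATA box core TATAA, each searched on both strands. The heat shock element pair GAANNTTC was searched as well.
P3h1, chr4:119232665-119232914, plus strand: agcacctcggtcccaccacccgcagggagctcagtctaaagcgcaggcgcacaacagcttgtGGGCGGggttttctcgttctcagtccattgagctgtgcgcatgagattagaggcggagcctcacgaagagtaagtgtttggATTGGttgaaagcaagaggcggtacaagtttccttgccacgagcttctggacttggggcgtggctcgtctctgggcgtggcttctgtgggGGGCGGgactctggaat
P4ha3, chr7:100285270-100285488, plus strand: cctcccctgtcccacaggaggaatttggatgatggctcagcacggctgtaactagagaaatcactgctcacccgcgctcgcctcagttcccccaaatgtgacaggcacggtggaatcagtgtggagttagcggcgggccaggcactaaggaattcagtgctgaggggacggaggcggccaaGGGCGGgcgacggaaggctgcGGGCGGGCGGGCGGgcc
Serpinh1, chr7:99353240-99353489, minus strand: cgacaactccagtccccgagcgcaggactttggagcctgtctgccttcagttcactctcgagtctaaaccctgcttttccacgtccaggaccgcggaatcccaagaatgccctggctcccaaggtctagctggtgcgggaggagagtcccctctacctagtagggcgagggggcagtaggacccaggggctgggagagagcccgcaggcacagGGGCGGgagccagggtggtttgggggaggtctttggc
Plod1, chr4:147936777-147937026, minus strand: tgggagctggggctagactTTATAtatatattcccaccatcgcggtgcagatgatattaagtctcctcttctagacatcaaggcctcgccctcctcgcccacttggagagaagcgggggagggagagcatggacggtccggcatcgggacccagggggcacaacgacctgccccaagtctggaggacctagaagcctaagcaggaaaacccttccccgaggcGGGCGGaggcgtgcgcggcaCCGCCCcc

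GGGCGG occurred in all 4 windows, with 2 matches in P3h1, 4 in P4ha3 of which 3 overlap, 1 in Serpinh1 and 2 in Plod1. Over all 32851 promoter windows of 250 bases in the table, 32.7% held it. CCAAT occurred once, on the minus strand of the P3h1 window, against 33.8% of all windows. TATAA occurred once, far upstream in Plod1, against 22.8% of all windows, and GAANNTTC in none of the 4, against 6.69%. These matches describe letters in a window, and the window of P4ha3 is shorter, at 219 bases.

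The targeted gene was checked first. Mmp14 had log2 signals of 7.98, 7.74, 7.44 and 7.72 in cKO tumors, against 8.86, 9.12, 9.31 and 9.17 in WT tumors, and the groups did not overlap. It fell in cKO tumors, by a log2 difference of −1.40 (SE 0.13, limma adjusted p 0.0444). That call was lost without cKO 2 (adjusted p 0.0582), without cKO 4 (0.211) and without any 1 of the WT tumors (0.0954 to 0.152), at differences from −1.48 to −1.33. It was lost as well with the array numbers 1 to 4 and 5 to 8 as a block (0.0708), with the replicate number as a block (0.354) and within arrays 1 to 4 (0.694) and 5 to 8 (0.178) alone. The tissue label, mammary tumor, was checked on 8 luminal markers. Epcam stood at 10.45 to 10.60 in cKO tumors and 10.51 to 10.64 in WT tumors, and Krt19, the most different of them, at 6.21 to 7.96 in cKO tumors and 7.65 to 8.96 in WT tumors (log2 difference −1.15, SE 0.42, limma unadjusted p 0.023). Krt5 had no row with a single symbol. Array medians lay between 3.64 and 3.71.

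None of the 10 genes passed the threshold of an adjusted p of 0.05 over all 23521 rows, at which limma called 2 rows, or 0.0085%. At an unadjusted p under 0.05, limma had 3 of the 10 lower in cKO tumors (Lox, Loxl1 and P3h1) and none higher, while 4.14% of all rows were lower and 5.54% higher at that level. In 2 of the 10, Lox and P3h1, every cKO tumor lay below every WT tumor, as in 1.73% of all rows, and in none did every cKO tumor lie above every WT tumor, as in 3.68% of all rows. The difference was below 0 in 7 of the 10, against 43.5% of all rows, and its median over the 10 was −0.44 on the log2 scale, against 0.023 over all rows. Without cKO 3 that median was −0.27. The 10 genes were chosen with earlier results of these data known, so the shares of all rows are a description and no test. Lox and P3h1 were at an unadjusted p under 0.05 in limma in all 8 fits that left out 1 tumor, and Loxl1 in 2 of them, those without cKO 1 and without cKO 4. In whole tumors, fewer cells of a type and less RNA per cell cannot be told apart.

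**Figure D1:**
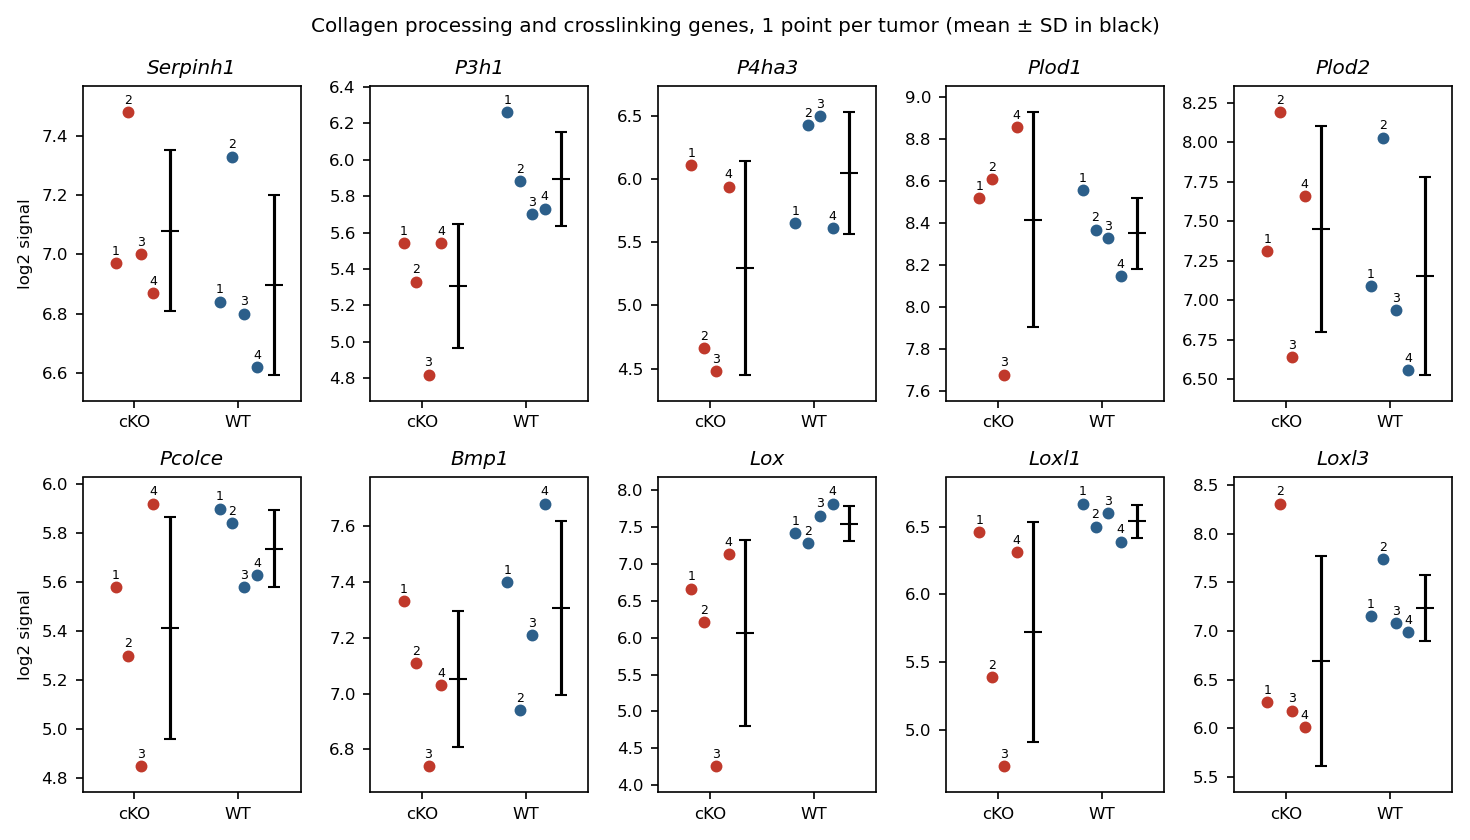
Log2 signal (vertical axis, a separate scale in each panel) of the 10 genes in each cKO and WT tumor, with points numbered by tumor and the mean ± SD of 4 tumors in black. Tumor cKO 3 was the lowest of all 8 for 7 of the genes, and the groups were apart only for P3h1 and Lox.

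Among the enzymes of the endoplasmic reticulum, P3h1 (row 17417872), the prolyl 3-hydroxylase whose loss causes a brittle bone disease in humans, had the smallest p of the 10. Its log2 signals were 5.54, 5.33, 4.82 and 5.54 in cKO tumors, against 6.26, 5.88, 5.70 and 5.73 in WT tumors. The highest cKO tumor lay below the lowest WT tumor. The cKO mean was 5.30 ± 0.34 and the WT mean 5.89 ± 0.25 (SD, n = 4 each), a log2 difference of −0.59 (SE 0.18), so that the cKO signal was 66.6% of the WT signal (95% confidence interval 49.9% to 88.8%). Limma's adjusted p was 0.366. Among arrays numbered 1 to 4 in the sample descriptions, with 2 tumors per group, it was −0.63, and among arrays 5 to 8 it was −0.54.

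P4ha3 (row 17480675), a catalytic subunit of prolyl 4-hydroxylase, split the cKO tumors. It stood at 6.11, 4.66, 4.48 and 5.94 in cKO tumors and at 5.65, 6.43, 6.5 and 5.61 in WT tumors. Only cKO 2 and cKO 3 lay below the WT range, and the other two lay within it. P4ha3 differed by −0.75 on the log2 scale (SE 0.40, limma adjusted p 0.595), by −0.48 without cKO 3 and by −1.02 without cKO 1.

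The lysyl hydroxylases had mean differences above 0. Plod1 (row 17432835), which acts on lysines of the helical part, had log2 signals of 8.52, 8.61, 7.68 and 8.86 in cKO tumors and 8.56, 8.37, 8.33 and 8.15 in WT tumors. Of the cKO tumors, 2 lay above every WT tumor, 1 within their range and cKO 3 below all of them. Plod1 differed by 0.07 on the log2 scale (95% confidence interval −0.45 to 0.59, limma adjusted p 0.948), by −0.08 without cKO 4 and by 0.32 without cKO 3, where limma's unadjusted p was 0.0351.

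Plod2 (row 17520364), which hydroxylates lysines of the telopeptides and so directs a stable type of crosslink, stood at 7.31, 8.19, 6.64 and 7.66 in cKO tumors and at 7.09, 8.03, 6.94 and 6.56 in WT tumors. The groups overlapped over most of their range. Its log2 difference was 0.30 (95% confidence interval −0.54 to 1.14, limma adjusted p 0.838), and it was 0.05 without cKO 2 and 0.59 without WT 2.

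Serpinh1 (row 17493658), the collagen chaperone, had log2 signals of 6.97, 7.48, 7.0 and 6.87 in cKO tumors, against 6.84, 7.33, 6.80 and 6.62 in WT tumors. Here cKO 3 was not low, cKO 2 and WT 2 were the highest of their groups, and the groups overlapped. The log2 difference was 0.18 (95% confidence interval −0.23 to 0.58, limma adjusted p 0.788), and it was 0.04 without cKO 2 and 0.32 without WT 2.

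The pair that frees the collagen molecule outside the cell was slightly lower in the mean. Pcolce (row 17454082), the procollagen C-proteinase enhancer, stood at 5.58, 5.30, 4.85 and 5.92 in cKO tumors and at 5.90, 5.84, 5.58 and 5.63 in WT tumors. One cKO tumor, cKO 4, was the highest of all 8 and cKO 3 the lowest. Pcolce differed by −0.33 on the log2 scale (SE 0.21, limma adjusted p 0.653), and −0.14 without cKO 3.

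Bmp1 (row 17308361), the proteinase itself, which in addition activates the Lox proenzyme, had log2 signals of 7.33, 7.11, 6.74 and 7.03 in cKO tumors and 7.40, 6.94, 7.21 and 7.68 in WT tumors. Only cKO 3 lay outside the WT range. On the log2 scale Bmp1 differed by −0.26 (SE 0.17, limma adjusted p 0.674), by 0.05 among arrays 1 to 4 and by −0.56 among arrays 5 to 8. The value was −0.15 without cKO 3 and −0.13 without WT 4.

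Of the 10 genes, the lysyl oxidase genes Lox and Loxl1 had the lowest differences. Lox (row 17354367), the founding enzyme of the family, stood at 6.66, 6.21, 4.26 and 7.13 in cKO tumors, against 7.41, 7.28, 7.65 and 7.81 in WT tumors. All 4 cKO tumors were below all 4 WT tumors, and cKO 3 was far below the other cKO tumors. The means were 6.07 ± 1.26 in cKO tumors and 7.54 ± 0.24 in WT tumors (SD, n = 4 each). The log2 difference of −1.47 (SE 0.53) puts the cKO signal at 36.0% of the WT signal, with a 95% confidence interval of 15.8% to 82.0%. Limma's adjusted p was 0.437, and the exact permutation p of 0.0286 was the smallest that 4 against 4 tumors allow.

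The size of the Lox difference moved with cKO 3. It was −0.87 without that tumor, with an unadjusted p of 0.00401 and an adjusted p of 0.318 in limma, and it was −0.91 among arrays 1 to 4 and −2.03 among arrays 5 to 8, which hold cKO 3. Across the fits that left out 1 tumor it ran from −1.83 to −0.87.

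Loxl1 (row 17527694), known for its role in elastic fibers, had log2 signals of 6.46, 5.39, 4.73 and 6.31 in cKO tumors, against 6.67, 6.5, 6.6 and 6.39 in WT tumors. The cKO tumors spanned 1.72, while the WT tumors were within 0.28 of each other. Of the cKO tumors, cKO 1 lay inside the WT range and the others below it, cKO 4 only just. Loxl1 differed by −0.82 on the log2 scale (SE 0.34, limma adjusted p 0.492), and −0.49 without cKO 3.

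Loxl3 (row 17459870), a family member with scavenger receptor domains, had another pattern. It stood at 6.27, 8.31, 6.18 and 6.01 in cKO tumors, against 7.15, 7.74, 7.08 and 6.99 in WT tumors. The tumors cKO 1, cKO 3 and cKO 4 lay below every WT tumor, and cKO 2 lay above every one. Over all 8 tumors the log2 difference was −0.55 (SE 0.47, limma adjusted p 0.739). It was −1.09 without cKO 2 (SE 0.18, limma adjusted p 0.163) and −0.32 without cKO 4. Among arrays 1 to 4, which hold cKO 2, it was −0.16, and among arrays 5 to 8 it was −0.95.

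**Figure D2:**
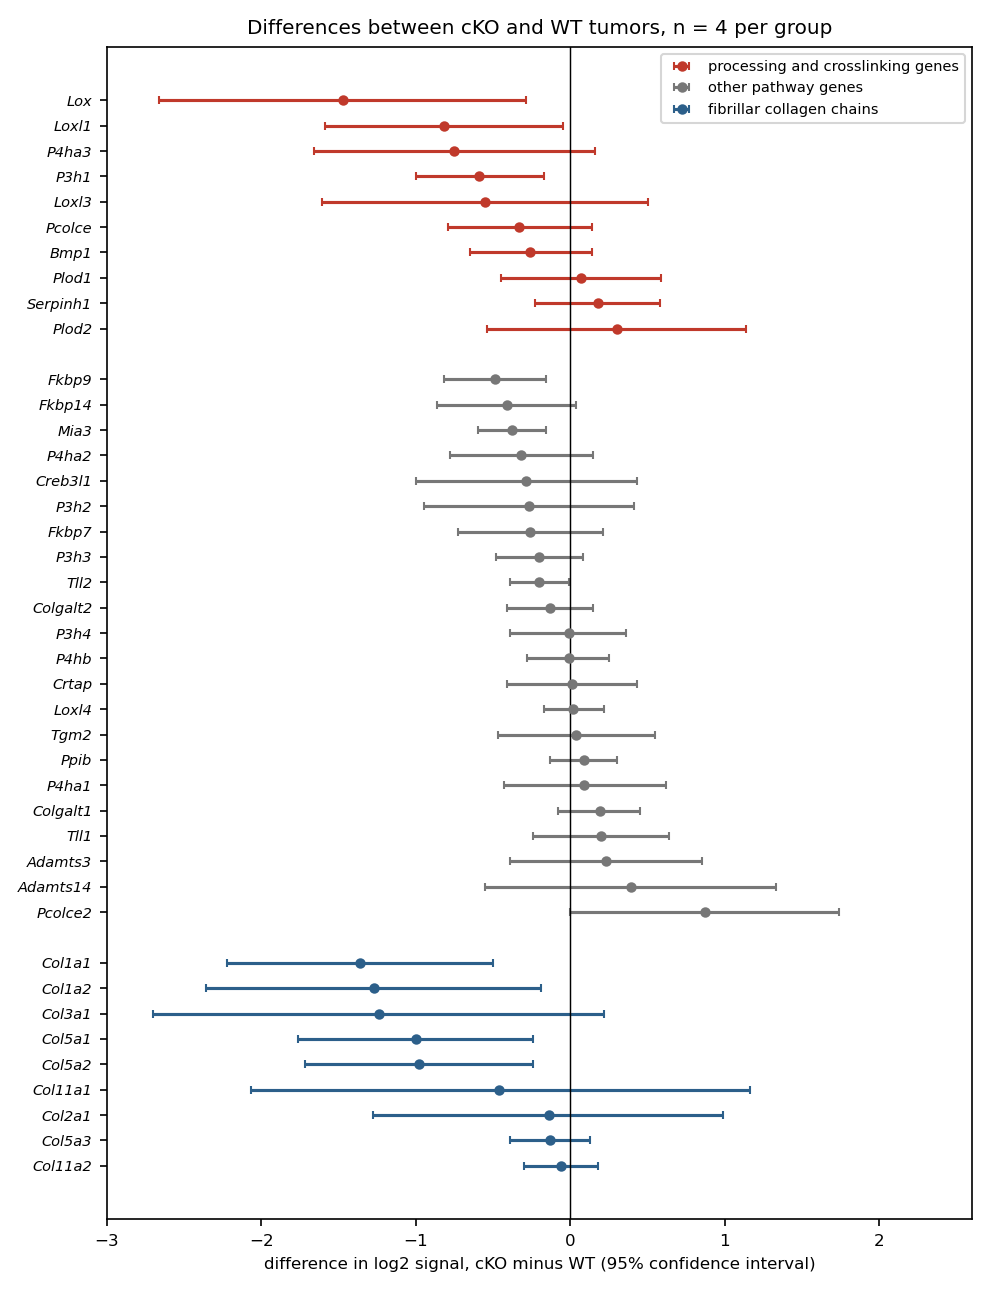
Difference in log2 signal between cKO and WT tumors (horizontal axis, points with 95% confidence intervals, n = 4 per group) for the 10 processing and crosslinking genes, 22 other pathway genes and 9 fibrillar collagen chains. The intervals of Lox, Loxl1 and P3h1 lie below 0, and those of Loxl3, P4ha3, Pcolce, Bmp1, Plod1, Plod2 and Serpinh1 span it.

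The cKO tumors varied more among themselves than the WT tumors did. The SD was larger in cKO tumors for 8 of the 10 genes, as it was for 58.8% of all rows, and it was 5.31 times as large for Lox and 6.69 times as large for Loxl1. For Serpinh1 and Bmp1 it was smaller in cKO tumors, and for Plod2 the ratio was 1.04. Tumor cKO 3 was the lowest of the 8 for 7 genes, against 13.6% of all rows. The exceptions were Serpinh1 and Plod2, both lowest in WT 4, and Loxl3, lowest in cKO 4. The mean deviation of the 10 genes from their own means over the 8 tumors, here called the list level, was 0.02, 0.00, −0.92 and 0.07 in cKO tumors, against 0.23, 0.37, 0.18 and 0.06 in WT tumors. Apart from cKO 3 the cKO tumors thus lay close to the lower end of the WT tumors, and cKO 4 lay within the WT range.

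**Figure D3:**
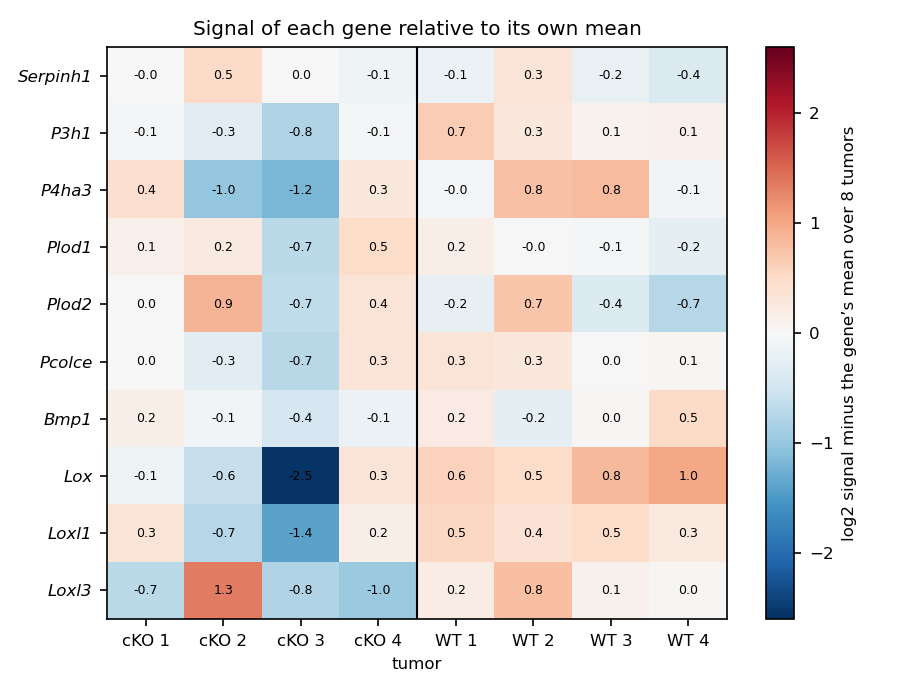
Log2 signal of each gene (rows) in each tumor (columns, cKO left of the line and WT right) minus that gene's mean over the 8 tumors, as numbers and colors. The column of cKO 3 is low for most genes, and Serpinh1, Plod2 and Loxl3 are high in cKO 2 and WT 2.

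Serpinh1, Plod2 and Loxl3 shared a feature that the other seven lacked: each was highest in its group in cKO 2 and in WT 2. Of the other pathway genes, Fkbp9 (7.99 in cKO 2 and 8.27 in WT 2), Adamts3 (6.08 and 5.95) and the dim Colgalt2 (3.27 and 3.7) had it too. So did the markers Thy1 and Des, the luminal marker Epcam (10.60 in cKO 2, and 10.64 in WT 2, nearly level with WT 4) and the skeletal muscle markers Acta1, Ckm, Myh4 and Tnnt3. How many of all rows have this feature was not counted. The fibrillar collagen chains Col11a1 and Col2a1, known best from cartilage, were highest in the same 2 tumors, with Col11a1 at 9.84 in cKO 2 and 9.23 in WT 2 and Col2a1 at 5.51 in cKO 2 and 6.24 in WT 2. The dim Col11a2 was highest of the WT tumors in WT 2 (3.69) but of the cKO tumors in cKO 3 (3.66), with 3.38 in cKO 2. The cartilage and bone markers were dim, with means of 2.75 to 2.84, under the array medians. Their level thus cannot tell whether cartilage was present. Those markers were not high in cKO 2 and WT 2, with list levels of 0.05 and −0.13. The skeletal muscle markers were, at 0.47 in cKO 2 (−0.76 to −0.11 in the other cKO tumors) and 1.68 in WT 2 (−0.72 to 0.76 in the other WT tumors). The muscle level of 0.76 was that of WT 4, above cKO 2. In WT 4, Serpinh1 (6.62), Plod2 (6.56) and Loxl3 (6.99) were lowest of the WT tumors. The part of muscle tissue in these values was not tested.

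The fibrillar collagen chains, on which these enzymes act, were all lower in the cKO mean, 9 of 9, against 43.5% of all rows. Their median log2 difference was −0.98. Without cKO 3 all 9 still had differences below 0, with a median of −0.60. None passed the threshold in limma, and 4 were lower at an unadjusted p under 0.05, against 4.14% of all rows. In 3 of the 9 (Col1a1, Col5a1 and Col5a2) every cKO tumor lay below every WT tumor, as in 1.73% of all rows. Col1a1, the main chain of type I collagen, stood at 8.86, 8.23, 7.36 and 9.46 in cKO tumors, against 10, 10.06, 9.68 and 9.61 in WT tumors. All cKO tumors were below all WT tumors, and the log2 difference was −1.36 (SE 0.38, limma adjusted p 0.315). Its partner Col1a2 differed by −1.27 (SE 0.48), Col3a1 of type III collagen by −1.24 (SE 0.65), and the type V chains Col5a1 and Col5a2 by −1.0 (SE 0.34) and −0.98 (SE 0.33). Col11a1 differed by −0.46, Col2a1 by −0.14, Col5a3 by −0.13 and Col11a2 by −0.06.

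Each of the 10 genes was set against Col1a1 across the 8 tumors, a comparison chosen after these values were seen. Of the 10 relations computed, 5 had a positive Pearson's r with an unadjusted exact permutation p under 0.05, as did 2.97% of the 23520 rows other than that of Col1a1. None had a negative r at that level, as 3.9% of the rows did, and 3 (P3h1, Loxl1 and Lox) had a positive Spearman's rho at it, as 2.16% of the rows did. With Benjamini-Hochberg adjustment over those rows none of the 10 passed, nor did any row (0.0%). P3h1 had an r of 0.93 (exact p 0.000223, adjusted 0.278) and a Spearman's rho of 0.93 (exact p 0.00223, adjusted 0.648). Lox had an r of 0.93 (exact p 0.00206, adjusted 0.424) and a rho of 0.76 (exact p 0.0368, adjusted 0.831). Pcolce had an r of 0.93 (exact p 0.00253, adjusted 0.434) and a rho of 0.64 (exact p 0.0962, adjusted 0.842).

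Loxl1 had an r of 0.94 (exact p 0.00327, adjusted 0.456) and a rho of 0.86 (exact p 0.0107, adjusted 0.82). P4ha3 had an r of 0.82 (exact p 0.0161, adjusted 0.636) and a rho of 0.67 (exact p 0.0831, adjusted 0.842). In the other five the exact p was above 0.05, with r at 0.50 for Bmp1, 0.49 for Plod1, 0.19 for Loxl3, 0.10 for Plod2 and −0.30 for Serpinh1 and exact permutation p from 0.211 to 0.813.

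The 5 relations weakened without cKO 2 and cKO 3, the tumors farthest from the median of Col1a1, and none then had an exact p under 0.05. Leaving these out also narrows the range of Col1a1 and leaves fewer tumors to test. Without these, over 6 tumors, r was 0.76 for P3h1 (exact permutation p 0.0847), 0.64 for Lox (0.181), 0.54 for Pcolce (0.286), 0.47 for Loxl1 (0.364) and 0.02 for P4ha3 (0.96). That of Loxl3 was 0.80 (unadjusted exact permutation p 0.0403). With each group's mean subtracted, r over the 8 tumors was 0.83 for P3h1, 0.87 for Lox, 0.99 for Pcolce, 0.91 for Loxl1 and 0.76 for P4ha3, given as a description. On the same measure it was 0.89 for Plod1, 0.49 for Plod2, 0.26 for Bmp1, −0.08 for Serpinh1 and −0.15 for Loxl3. No r is given within arrays 1 to 4 or 5 to 8, which hold 4 tumors each.

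**Figure D4:**
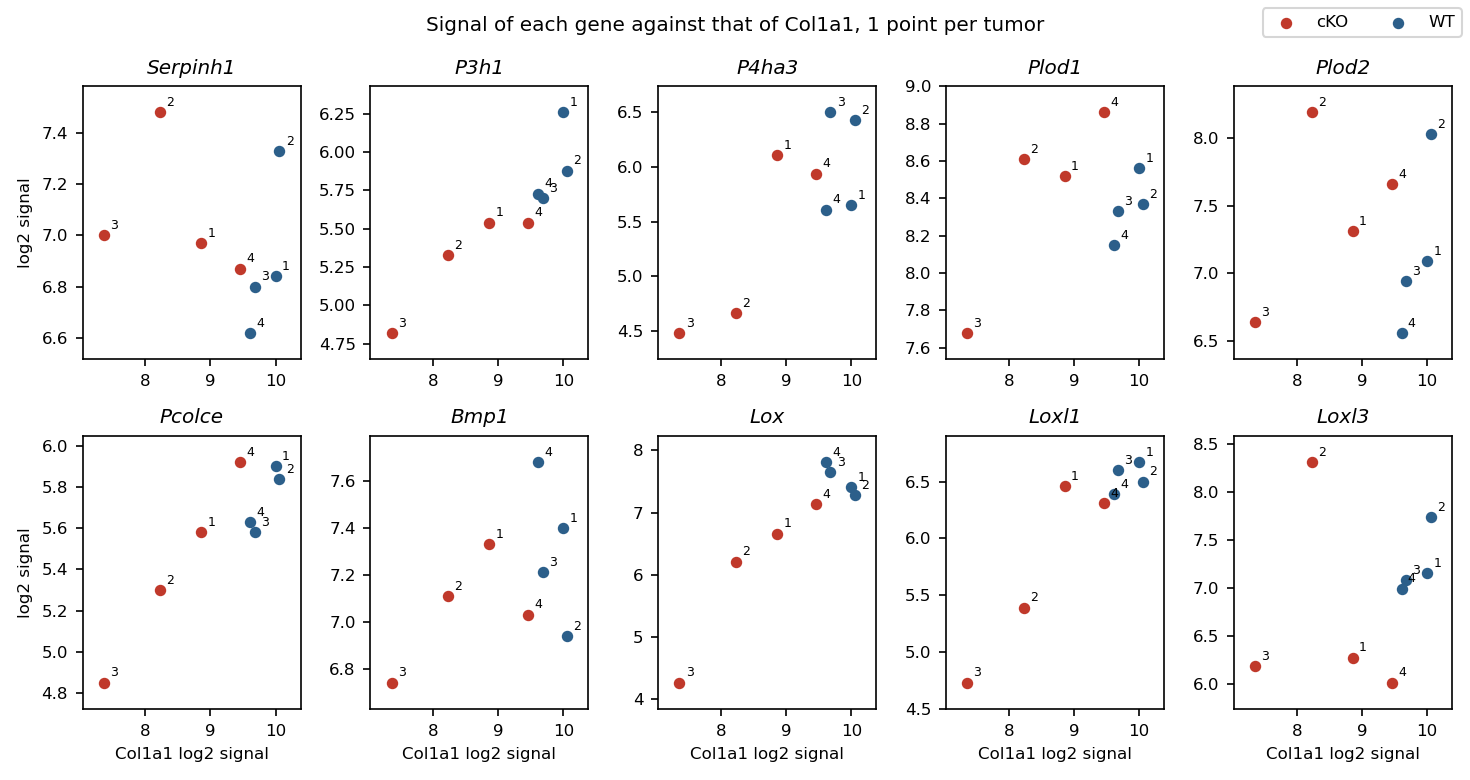
Log2 signal of each of the 10 genes (vertical axes, separate scales) against the log2 signal of Col1a1 (horizontal axis) in 4 cKO and 4 WT tumors, numbered by tumor. P3h1, Lox, Pcolce and Loxl1 run upward from cKO 3 at the lower left, and Serpinh1 and Plod2 do not.

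Other genes of collagen making were compared as a list of 26, of which 22 had a row with a single symbol. None passed the threshold in limma, 12 were lower and 10 higher in the cKO mean, and the median log2 difference was −0.01. At an unadjusted p under 0.05, 3 were lower and 1, Pcolce2, was higher, against 4.14% and 5.54% of all rows. Pcolce2 lay at the edge of that cutoff, with a limma unadjusted p that rounds to 0.05, and its groups overlapped. Mia3 (TANGO1), which loads procollagen into transport vesicles, had the smallest p, at 8.80, 8.75, 8.90 and 8.76 in cKO tumors against 9.25, 8.95, 9.34 and 9.17 in WT tumors. Its log2 difference was −0.38 (SE 0.10, limma adjusted p 0.274), the groups did not overlap, and cKO 3 was the highest of the cKO tumors.

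The next by p were Fkbp9, a prolyl isomerase of the endoplasmic reticulum, at −0.49 (SE 0.15, limma adjusted p 0.347) and Tll2, a tolloid-like relative of Bmp1, at −0.20 (SE 0.08). Tll2 was dim, between 2.95 and 3.39 in all tumors and so under the array medians. Pcolce2, the second C-proteinase enhancer, was higher by 0.87 (SE 0.38, limma adjusted p 0.516), with 4.31, 4.91, 5.69 and 5.66 in cKO tumors against 3.59, 5.17, 4.16 and 4.19 in WT tumors. Its sign was opposite to that of Pcolce. Fkbp14, an isomerase that acts on procollagen, stood at −0.41, P3h3 at −0.20, the collagen galactosyltransferase Colgalt1 at 0.19 and P4ha2 at −0.32.

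Genes whose products work with those of the 10, or belong to the same families, were picked here after their values were seen. P4hb, the shared beta subunit of prolyl 4-hydroxylase, differed by −0.01 (95% confidence interval −0.28 to 0.25), and P4ha1, the main alpha subunit, by 0.09 (−0.43 to 0.62). Crtap and Ppib, which form a complex with the P3h1 protein, differed by 0.01 (−0.41 to 0.43) and 0.09 (−0.13 to 0.30). The lysyl oxidase Loxl4 differed by 0.02 (−0.17 to 0.22), and the prolyl 3-hydroxylase P3h2 by −0.27 (−0.95 to 0.41). All of these intervals span 0, the widest being that of P3h2. Loxl2, Plod3, Fkbp10 and Adamts2 had no row with a single symbol and were not analysed here.

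Marker lists of the cell types that a tumor can hold were read beside these values. Of 16 fibroblast markers 15 were lower in the cKO mean, against 43.5% of all rows, and the median log2 difference of the markers was −0.50. None of the 16 passed the threshold in limma, and 4 were lower at an unadjusted p under 0.05, against 4.14% of all rows. Their list level was 0.15, −0.59, −1.27 and 0.62 in cKO tumors, against 0.34, 0.41, 0.35 and −0.02 in WT tumors. Tumor cKO 3 was thus lowest in both lists, while cKO 4 had the highest fibroblast level of all tumors and a level of the 10 genes of 0.07. Without cKO 3 the median of the fibroblast markers was −0.24, and 10 of 16 were lower. Pericyte and smooth muscle markers were lower in 8 of 9 (list level −0.61 to 0.09 in cKO tumors and 0.03 to 0.29 in WT tumors), and endothelial markers in 8 of 8 (−0.52 to 0.23 in cKO tumors and −0.11 to 0.31 in WT tumors). Both were lowest in cKO 3 as well. So were the levels of the fibrillar chains (−1.11), other pathway genes (−0.11) and basal (−0.47), adipocyte (−0.46) and skeletal muscle markers (−0.76, against −0.72 in WT 3). Of the 5 adipocyte markers only 1, Fabp4 (3.96), was lowest of the 8 tumors in cKO 3. The other adipocyte markers were dim, with means of 3.02 to 3.63, under the array medians. The macrophage, luminal, and cartilage and bone lists were lowest in another tumor.

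Macrophage markers were higher in 7 of 8, and none passed the threshold. At an unadjusted p under 0.05 in limma 6 of the 8 were higher, as were 5.54% of all rows. In 4 of the 8 every cKO tumor lay above every WT tumor, as in 3.68% of all rows. The macrophage list level was 0.07 to 0.43 in cKO tumors and −0.47 to −0.03 in WT tumors. Luminal markers were lower in 7 of 8, with a level of −0.32 to 0.13 in cKO tumors and −0.09 to 0.40 in WT tumors. The dimmest fibroblast marker, Clec3b, had a mean of 3.35, under the array medians, and the others lay above them. The part of the fibroblast, mural, endothelial and macrophage shares in the differences of the 10 genes was not tested.

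**Figure D5:**
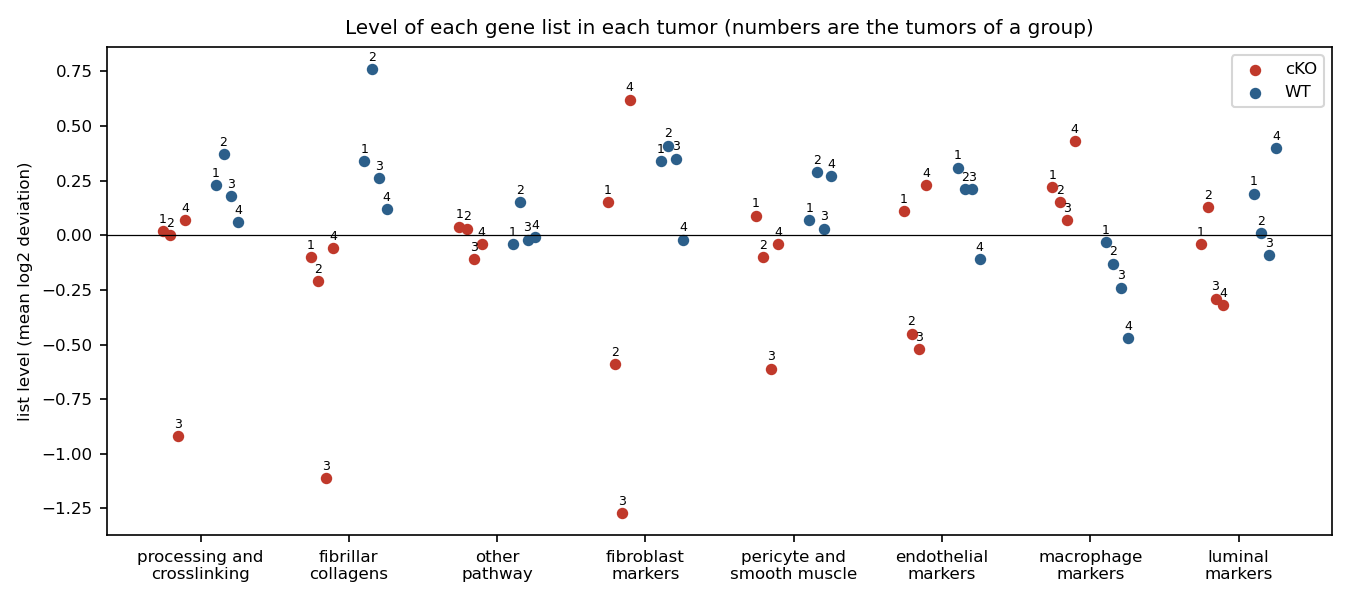
List level (vertical axis, the mean log2 deviation of a list's genes from their own means over 8 tumors) of 8 gene lists in each cKO and WT tumor, numbered by tumor. The level of the 10 genes and that of the fibroblast markers were both lowest in cKO 3, at −0.92 and −1.27. So were those of the fibrillar chains (−1.11), other pathway genes (−0.11), pericyte and smooth muscle (−0.61) and endothelial markers (−0.52). Those of the macrophage and luminal markers were not.

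The genes whose pattern over the 8 tumors was most like the level of the 10 were ranked among 9861 genes with a mean log2 signal of at least 5, outside all lists used here. The first 6 by Pearson's r, a description of rank over tumors that share the low cKO 3, were Sgf29 (0.979), Dnm1 (0.970), Sparc (0.969), Tnc (0.968), Flywch1 (0.967) and Lrrc15 (0.965). Sparc encodes a collagen-binding matricellular protein, Tnc the matrix glycoprotein tenascin C, and Lrrc15 a membrane protein of activated fibroblasts. Tnc stood at 6.92, 7.16, 4.19 and 6.78 in cKO tumors, against 7.72, 7.45, 7.33 and 7.38 in WT tumors. Lrrc15 stood at 6.29, 6.0, 4.67 and 6.27 in cKO tumors, against 7.11, 7.22, 6.76 and 6.36 in WT tumors. In both, cKO 3 was lowest by more than 1 on the log2 scale, a pattern that the ranking itself favors. No cKO tumor reached the lowest WT tumor in Tnc or Lrrc15, as in 1.73% of all rows. The ranking favors this too, because the level of the 10 was itself lower in cKO tumors (mean −0.21) than in WT tumors (0.21). That share thus does not measure how rare the separation is among genes ranked this way. Neither passed the threshold, with log2 differences of −1.21 (SE 0.57) and −1.05 (SE 0.36) and limma adjusted p of 0.545 and 0.411. Sgf29 and Flywch1 spanned less, with log2 differences of −0.14 and −0.17. In Sgf29, Flywch1, Dnm1 and Sparc the groups overlapped.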

How the data were processed

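The deposited log2 signals came from Affymetrix mouse arrays, with 400 ng of RNA per tumor per the labels' protocols. RMA and limma appear in the submitters' processing notes, with no version or setting given in the sources used here. Values ran from 0.853 to 12.9, which fits the log2 scale, and the correlation across rows between arrays was 0.976 to 0.989. Of 41345 rows, 23521 had 1 symbol in the platform annotation, 1814 several and 16010 none. Symbols of 23328 rows were updated by gene identifier through the RefSeq table of GRCm38.p6.

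Differences (cKO minus WT) were fitted for all 23521 rows by limma 3.58.1 under R 4.3.3, using lmFit and eBayes with no covariate and two-sided tests, with Benjamini-Hochberg adjustment over all of them and a threshold of 0.05. A gene with several rows was shown by that with the highest mean. No detection call was used, so a dim row can understate a change. Precision is limited by the 4 arrays per group. Named are Mmp14, the 10 genes, the 8 other pathway genes with the smallest p, all fibrillar chains and the 6 genes most like the list level. Further pathway genes and marker genes were picked after their values were seen. The 10 genes and the lists were chosen with earlier results of these data known. Alternatives were a second quantile normalization, a shift to 1 median, a filter on dim rows, 1 row per gene, another prior, blocks by replicate number or array number, and single tumors left out.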

Additional observations from a re-analysis of the deposited data

Results flagged for a closer look

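In Loxl3, the tumor cKO 2 stood apart from its group at a log2 signal of 8.31, with the other cKO tumors between 6.01 and 6.27. Its gap to the nearest of them took 0.883 of the group's range, past Dixon's 95% critical value for 4 samples. This was 1 of 22 groups examined (10 genes and Mmp14 in both genotypes), and chance marks about 1 in 20.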

How the results depend on the processing

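Under none of the alternatives did any of the 10 genes or of the 22 other pathway genes pass the threshold, and the median difference of the 10 lay between −0.55 (within arrays 5 to 8) and −0.27 (without cKO 3). In these fits the sign turned for Bmp1 among arrays 1 to 4 (0.0522) and for Plod1 without cKO 4 (−0.0777), whose other values with 1 tumor left out reached 0.315. At an unadjusted p under 0.05 limma had Lox, Loxl1 and P3h1 in every fit of all 8 tumors. The genes differed within arrays, with Lox, P3h1 and Pcolce (0.031) among arrays 1 to 4 and with Loxl3 (0.000884) and Bmp1 (0.0449) among arrays 5 to 8. With 1 tumor left out there were 2 to 5, and without cKO 3 they were Lox, P3h1 and, higher in cKO tumors, Plod1. Both rescalings gave Mmp14 the same call, and moved the median of the 10 to −0.43. With the replicate block the difference of Mmp14 was −1.40 and its adjusted p 0.354, and 0 rows passed instead of 2, with 1898 at an unadjusted p under 0.05. With arrays 1 to 4 and 5 to 8 as a block it was −1.40 with an adjusted p of 0.0708 and 1 row passed. Within arrays 1 to 4 it was −1.13 and within arrays 5 to 8 −1.66, with 0 rows passing in both and 1334 and 2686 at an unadjusted p under 0.05. With 1 tumor left out Mmp14 ran from −1.48 to −1.30 and between 0 and 3 rows passed. Fits within arrays or with a tumor left out had fewer samples, and for the blocks the cause was not tested. Deviations of same-numbered tumors correlated across rows with r from −0.24 to 0.29, so that the numbers were not taken to pair them. Each of the 10 had 1 row, so averaging rows changed nothing. With 4 arrays per group, the intervals above limit what can be said: that of Plod2 spans −0.54 to 1.14.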
